A study of Mus musculus and Homo sapiens with 34 samples.

Results

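The data described here are the RNA sequencing libraries of 3154 mouse lung tumour organoids taken 2 weeks after the gene Hnf4a was deleted. They were chosen by their labels: 2 libraries of organoids given 4-hydroxytamoxifen (4OHT) and 2 libraries of organoids given the solvent ethanol (EtOH), 4 of the 34 libraries of the series, with every gene of their own count table. All 4 libraries carry the same alleles, among them p53frt, Rosa-FSF-CreERT2 and Hnf4aflox: a removable p53 allele under control of the FLP recombinase, a Cre recombinase, also under FLP control, that 4OHT switches on, and Hnf4a alleles flanked by loxP sites. Organoids received 4OHT, given as 2 mM in the labels, which do not say whether this is a stock or a working concentration, or EtOH for 2 days, and RNA was collected 2 weeks later. 3154 is 1 line, its cells were grown in L-WRN conditioned medium, which supplies WNT, R-spondin and noggin, and the labels do not say whether replicates were separate cultures, so the p-values measure only the spread between these libraries. No library used here received 4OHT without floxed Hnf4a, so the effect of losing Hnf4a and any effect of 4OHT or of active Cre cannot be told apart.

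HNF4α is a nuclear receptor that binds DNA as a homodimer. It directs the gene programmes of hepatocytes and of the absorptive cells of the intestine, where its targets serve lipid transport, detoxification and the microvilli of the brush border. It is not part of normal alveolar epithelium, which depends on NKX2-1, but some lung adenocarcinomas express gut and liver genes alongside lung genes.

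The 4 libraries held between 24039799 and 30857875 counts. The share of counts from the 13 mitochondrially encoded genes was 1.69 to 1.70% with EtOH and 2.15 to 2.21% with 4OHT. Alveolar markers were present in all libraries: Sftpb, a surfactant protein, stood at 7184 and 10441 CPM with EtOH and 6879.9 and 9782 CPM with 4OHT, and Nkx2-1 at 275 and 191 CPM with EtOH and 261 and 226 CPM with 4OHT. Of 21 markers of fibroblasts, endothelium and immune cells, 10 were not listed in the table, and the listed ones summed to 44.7 and 66.6 CPM with EtOH and 29.3 and 37.1 CPM with 4OHT. CPM relate a gene's count to the TMM-scaled size of its library, and values are given in the order replicate 1, replicate 2. Because each library is a bulk sample, fewer cells of a type and less RNA per cell cannot be told apart in any result below.

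Hnf4a itself (ENSMUSG00000017950, chromosome 2, 163506808 to 163572910 on GRCm38) stood at 315 and 427 CPM in the EtOH libraries and 53.5 and 68.0 CPM in the 4OHT libraries. Both 4OHT libraries were far below both EtOH libraries, with 16.4% of the mean EtOH level left (log2 fold change -2.61 ± 0.21, adjusted p = 0.00643). The counts do not tell recombined from intact Hnf4a transcripts, so the share of intact Hnf4a left is not known. Here and below, a log2 fold change is 4OHT against EtOH from edgeR's quasi-likelihood fit with its standard error (n = 2 libraries a group), and the adjusted p is Benjamini-Hochberg corrected over all genes tested. A gene was called when that value was under 0.05. The counting strand is not given in the sources used here, so where another gene is annotated on the opposite strand of a gene's exons, the share of exon bases is given. Hnf4g, the other HNF4 gene, was at or below 8 counts in every library and was not tested.

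Of 18356 genes listed, 14492 passed the filter on low counts and 1421 were called, which is 9.81% of those tested. Of these, 584 were higher (4.03% of genes tested) and 837 were lower (5.78%) after 4OHT. Among called genes, 480 rose and 565 fell at least 2-fold, and 165 rose and 150 fell at least 8-fold. The median log2 fold change was 2.00 among the called rises and -1.34 among the called falls, against 0.02 over all tested genes. Counts of list members called, given below, stand against these shares, and a list near them is not set apart by its count. A fit without 1 library leaves 1 sample in that group and takes the spread from the other group's pair, with 1 residual degree of freedom, assuming that the lone library varies alike. The biological coefficient of variation that edgeR estimated was 0.193 with all libraries, 0.219 without either 4OHT library, where the EtOH pair gives it, and 0.170 without either EtOH library. Without 4OHT replicate 1, 395 genes were called, 372 of them among the 1421, and without 4OHT replicate 2, 437 were called, 411 of them among the 1421. Without EtOH replicate 1, 2790 genes were called, and 1519 without EtOH replicate 2. Each of these fits gave values for 1415 to 1419 of the 1421 genes, and none of those genes changed sign. The genes were called on the same libraries, so a change of sign was unlikely beforehand.

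**Figure D1:**
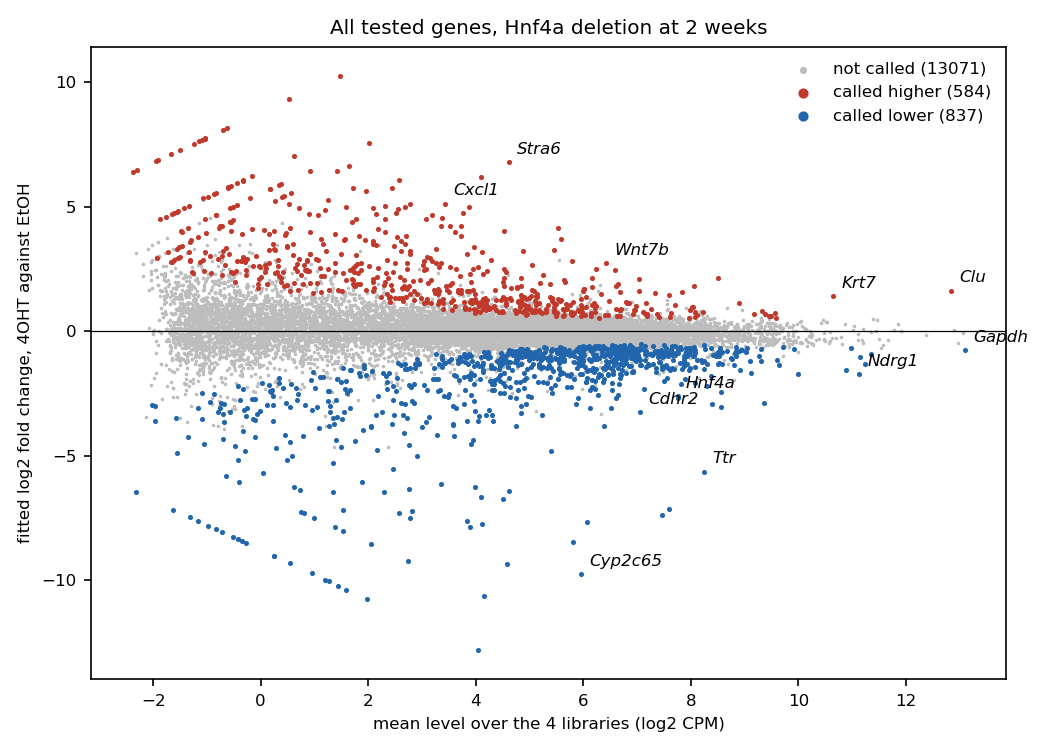
Fitted log2 fold change (4OHT against EtOH, vertical axis) against the mean level over the 4 libraries (log2 CPM, horizontal axis) for the 14492 tested genes; coloured points are the 584 genes called higher and the 837 called lower. Hnf4a lies at -2.61 and Stra6 at 6.78.

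The 15 largest falls among genes with at least 10 CPM in the EtOH mean and no overlap between the groups included the P450 genes Cyp2c65, Cyp2d26 and Cyp4f40. Cyp2c65, a cytochrome P450 of the gut, stood at 111 and 138 CPM in the EtOH libraries and 0.230 and 0.0375 CPM in the 4OHT libraries (log2 fold change -9.75 ± 0.42). Muc13, a transmembrane mucin of the apical surface, stood at 36.7 and 59.3 CPM with EtOH and 0.0985 and 0.0375 CPM with 4OHT (log2 fold change -9.33 ± 0.48). Both were down to a few counts per library with 4OHT.

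Among the other falls of that group, Tm4sf20, a tetraspan membrane protein, had 1 count in the 4OHT libraries together. It stood at 13.7 and 57.0 CPM with EtOH and 0 and 0.0375 CPM with 4OHT, a pooled ratio of EtOH to 4OHT of 1832 (95% interval 328 to 72389) by counting error only. Slc17a4, an anion transporter, also had 1 count with 4OHT, and stood at 8.87 and 17.8 CPM with EtOH. Anks4b, a scaffold of the complex that links the tips of microvilli, stood at 29.5 and 27.8 CPM with EtOH and 0.197 and 0.0750 CPM with 4OHT (log2 fold change -7.64 ± 0.35). Ambp, the precursor of the plasma proteins alpha-1-microglobulin and bikunin, stood at 30.2 and 39.1 CPM with EtOH and 0.197 and 0.112 CPM with 4OHT (log2 fold change -7.74 ± 0.34). The unconventional myosin gene Myo15b stood at 109 and 157 CPM with EtOH and 0.755 and 0.562 CPM with 4OHT (log2 fold change -7.64 ± 0.30). In these genes the EtOH libraries were both high and the 4OHT libraries both close to 0.

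Further falls of the group were the P450 genes Cyp2d26 and Cyp4f40, the sulphotransferase gene Sult1d1, the glucuronosyltransferase gene Ugt2b34, the membrane protein gene Ms4a8a, the intestinal alkaline phosphatase gene Alpi and the imprinted non-coding RNA H19. Their log2 fold changes lay between -8.45 (Cyp2d26, 68.5 and 156 CPM with EtOH and 0.230 and 0.412 CPM with 4OHT) and -7.15 (H19). H19 and Ugt2b34 differed widely between the EtOH replicates: H19 stood at 184 and 583 CPM with EtOH and 0.689 and 4.80 CPM with 4OHT and Ugt2b34 at 152 and 549 CPM with EtOH and 1.58 and 2.62 CPM with 4OHT. Adjusted p-values of the falls named ran from 0.00193 to 0.0215. Reads of the Cyp2c, Cyp2d, Cyp4f, Ugt2b and Sult families can be split between near-identical copies, so values of single members are uncertain.

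**Figure D2:**
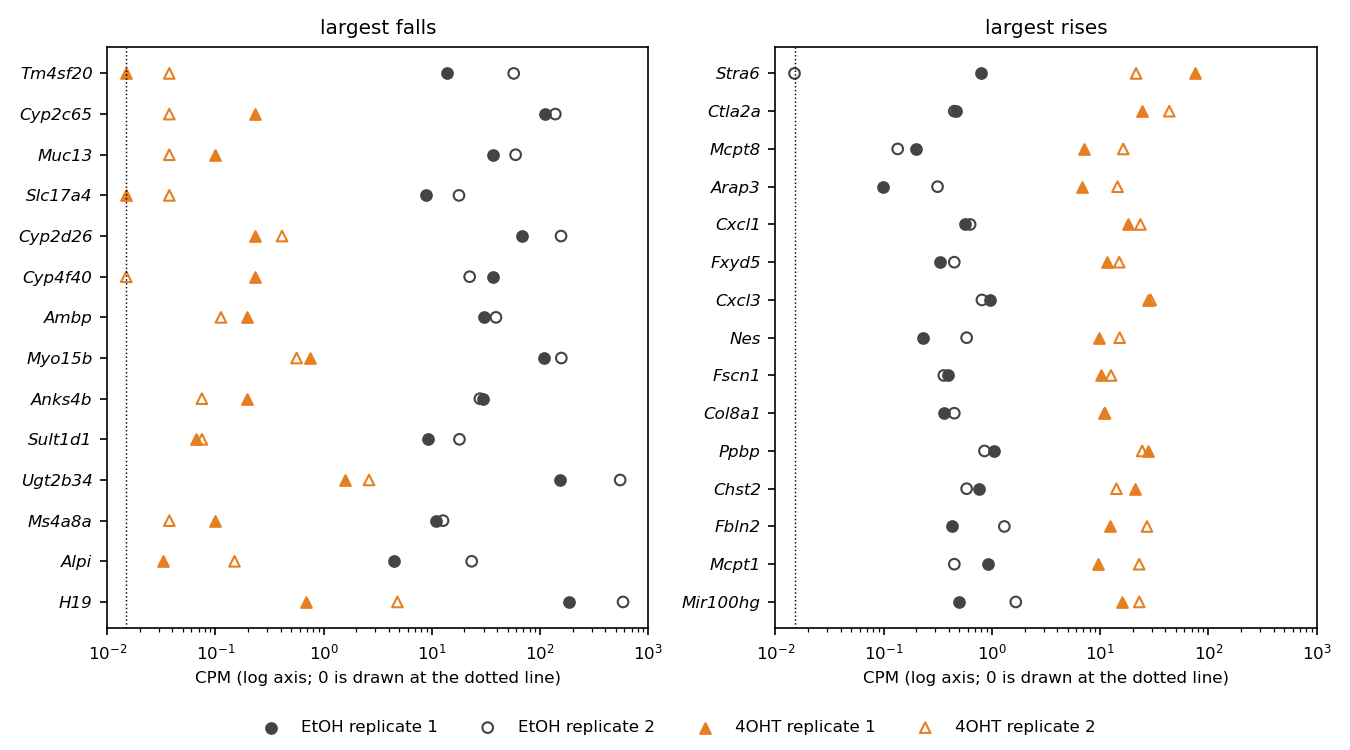
TMM-scaled CPM (log axis, zero drawn at the dotted line) in each of the 4 libraries for the largest called falls and rises that reached 10 CPM in the mean of the higher group. In each gene the EtOH and the 4OHT libraries do not overlap, which is how the genes were chosen; the EtOH replicates of Alpi, at 4.48 and 23.3 CPM, lie farther apart on this axis than those of Cyp2c65, at 111 and 138 CPM.

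RefSeq promoter windows (GRCm38.p6) of 250 bases before to 50 bases after a gene's start were searched on both strands for HNF4-type motifs: CAAAGNNCA, the core of the direct repeat that HNF4α binds, and its stricter form CAAAGTCCA, which is contained in it. A window was found for 11 of the 15 largest falls, and 5 of these held a motif. The 5 are printed because they carry the largest falls with a match; each line gives the 250 bases before the start, in the direction of the gene, with the match in capitals.
Cyp2c65 (chr19:39060756-39061005, plus strand): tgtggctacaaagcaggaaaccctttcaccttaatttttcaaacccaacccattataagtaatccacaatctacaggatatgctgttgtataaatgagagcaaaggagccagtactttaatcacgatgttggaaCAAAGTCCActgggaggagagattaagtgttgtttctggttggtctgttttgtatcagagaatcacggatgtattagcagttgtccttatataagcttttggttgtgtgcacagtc
Muc13 (chr16:33794239-33794488, plus strand): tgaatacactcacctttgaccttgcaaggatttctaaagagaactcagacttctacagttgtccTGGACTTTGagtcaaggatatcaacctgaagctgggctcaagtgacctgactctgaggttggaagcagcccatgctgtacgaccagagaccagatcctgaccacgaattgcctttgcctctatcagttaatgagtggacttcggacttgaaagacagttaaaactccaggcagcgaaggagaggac
Cyp2d26 (chr15:82794246-82794495, minus strand): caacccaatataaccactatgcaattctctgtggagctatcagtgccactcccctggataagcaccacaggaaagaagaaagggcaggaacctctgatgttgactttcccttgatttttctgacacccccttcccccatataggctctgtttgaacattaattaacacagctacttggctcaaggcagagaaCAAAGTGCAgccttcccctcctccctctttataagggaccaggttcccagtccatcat
Anks4b (chr7:120173608-120173857, plus strand): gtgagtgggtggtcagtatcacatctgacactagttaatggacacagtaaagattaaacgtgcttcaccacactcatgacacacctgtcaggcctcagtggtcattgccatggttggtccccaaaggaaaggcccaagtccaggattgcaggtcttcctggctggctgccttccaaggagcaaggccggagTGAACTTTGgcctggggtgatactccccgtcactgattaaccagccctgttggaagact
Alpi (chr1:87101607-87101856, minus strand): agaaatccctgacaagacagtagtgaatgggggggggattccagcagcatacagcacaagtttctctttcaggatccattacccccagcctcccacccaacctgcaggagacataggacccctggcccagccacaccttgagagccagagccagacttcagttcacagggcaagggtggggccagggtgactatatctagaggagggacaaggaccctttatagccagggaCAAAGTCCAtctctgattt

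In Cyp2c65, Muc13 and Alpi the match was the strict HNF4-type motif, read on the opposite strand in Muc13 and on the gene's strand in the others. Cyp2d26 and Anks4b held only the looser form. Over all tested genes with a window (10546 genes, 72.9% of the tested gene symbols), 6.14% held CAAAGNNCA. The share was 10.1% of 635 genes called lower and 18% of 111 lower at least 8-fold, against 6.16% of 422 genes called higher and 6.14% of 114 higher at least 8-fold. For CAAAGTCCA the shares were 0.569% of all, 2.05% of called falls, 7.21% of falls of at least 8-fold and 0.474% of called rises, which is 2 genes, both among the rises of at least 8-fold (1.75%). These shares were not tested, and a match is a run of letters, not a bound site.

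Genes of the brush border, the microvilli on the apical face of absorptive epithelium, were lower after 4OHT in 15 of 23 tested members and called higher in none, beside 5.78% of all genes called lower. Their median log2 fold change was -2.38. The summed level of the listed members was 1984 and 2415 CPM with EtOH and 865 and 1024 CPM with 4OHT, with both 4OHT libraries below both EtOH libraries. Cdhr2, the protocadherin of the links between microvilli, stood at 233 and 249.6 CPM with EtOH and 25.0 and 25.5 CPM with 4OHT (log2 fold change -3.26 ± 0.13). Eps8l3, an actin regulator, stood at 51.0 and 86.2 CPM with EtOH and 6.63 and 6.60 CPM with 4OHT (log2 fold change -3.37 ± 0.29), with a gene on the opposite strand of 42.4% of its exon bases. The meprin subunit gene Mep1b was at 1.48 and 0.943 CPM with EtOH and had no count with 4OHT, at least 11.5-fold lower against a floor of 3 counts per library. Alpi stood at 4.48 and 23.3 CPM with EtOH and 0.0328 and 0.150 CPM with 4OHT (log2 fold change -7.22 ± 1.15). Dpp4, an abundant apical peptidase, did not pass the test at 476 and 689 CPM with EtOH and 285 and 335 CPM with 4OHT (log2 fold change -0.91 ± 0.21, adjusted p = 0.0519). Of the 15 calls, 9 remained when either 4OHT library was left out.

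Genes of lipid absorption and lipoprotein assembly fell in 13 of 21 tested members, beside 5.78% of all tested genes, with a median log2 fold change of -2.02 and no member called higher. Fabp1, the fatty acid binding protein of liver and proximal gut, was at 2.93 and 6.69 CPM with EtOH and had no count with 4OHT, at least 45.6-fold lower. Apoa4, at 1.95 and 3.86 CPM with EtOH and no count with 4OHT, was at least 27.5-fold lower; 69.8% of its exon bases lie opposite another gene. Apoa1, the main protein of high density lipoprotein, stood at 4.05 and 25.0 CPM with EtOH and 0.197 and 0.712 CPM with 4OHT (log2 fold change -5.01 ± 1.07), and its EtOH replicates differed widely: without EtOH replicate 2 the change was -3.17. Apom, a carrier of sphingosine phosphate, stood at 35.6 and 25.5 CPM with EtOH and 3.25 and 2.51 CPM with 4OHT (log2 fold change -3.40 ± 0.27). Rbp2, the retinol carrier of enterocytes, stood at 15 and 29.6 CPM with EtOH and 1.71 and 1.69 CPM with 4OHT (log2 fold change -3.71 ± 0.39). Of the 13 calls, 5 and 4 remained without 4OHT replicate 1 and replicate 2.

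Plasma proteins and clotting factors of liver moved both ways: 6 of 14 tested members were lower and 2 were higher. Ttr, the carrier of thyroxine, stood at 348 and 843 CPM in the EtOH libraries and 9.13 and 14.8 CPM in the 4OHT libraries (log2 fold change -5.64 ± 0.53). F2, which encodes prothrombin, stood at 17.2 and 50.9 CPM with EtOH and 0.230 and 0.450 CPM with 4OHT (log2 fold change -6.65 ± 0.72). Complement factor B, Cfb, stood at 5.87 and 14.4 CPM with EtOH and 0.427 and 1.12 CPM with 4OHT (log2 fold change -3.71 ± 0.64), and 79.5% of its exon bases are shared with another gene on its strand. The members called higher were Hp, encoding haptoglobin, at 10.5 and 17.0 CPM with EtOH and 93.2 and 101 CPM with 4OHT (log2 fold change 2.82 ± 0.25), and complement C3, at 0.626 and 1.80 CPM with EtOH and 16.0 and 27.6 CPM with 4OHT (log2 fold change 4.21 ± 0.54); both are also acute phase proteins, and Hp is also in the club cell list. In all 5 genes the groups did not overlap, which with 2 libraries against 2 was so in 61.8% of all tested genes. Among the 8 calls of the list, 6 and 7 remained without 4OHT replicate 1 and replicate 2.

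**Figure D3:**
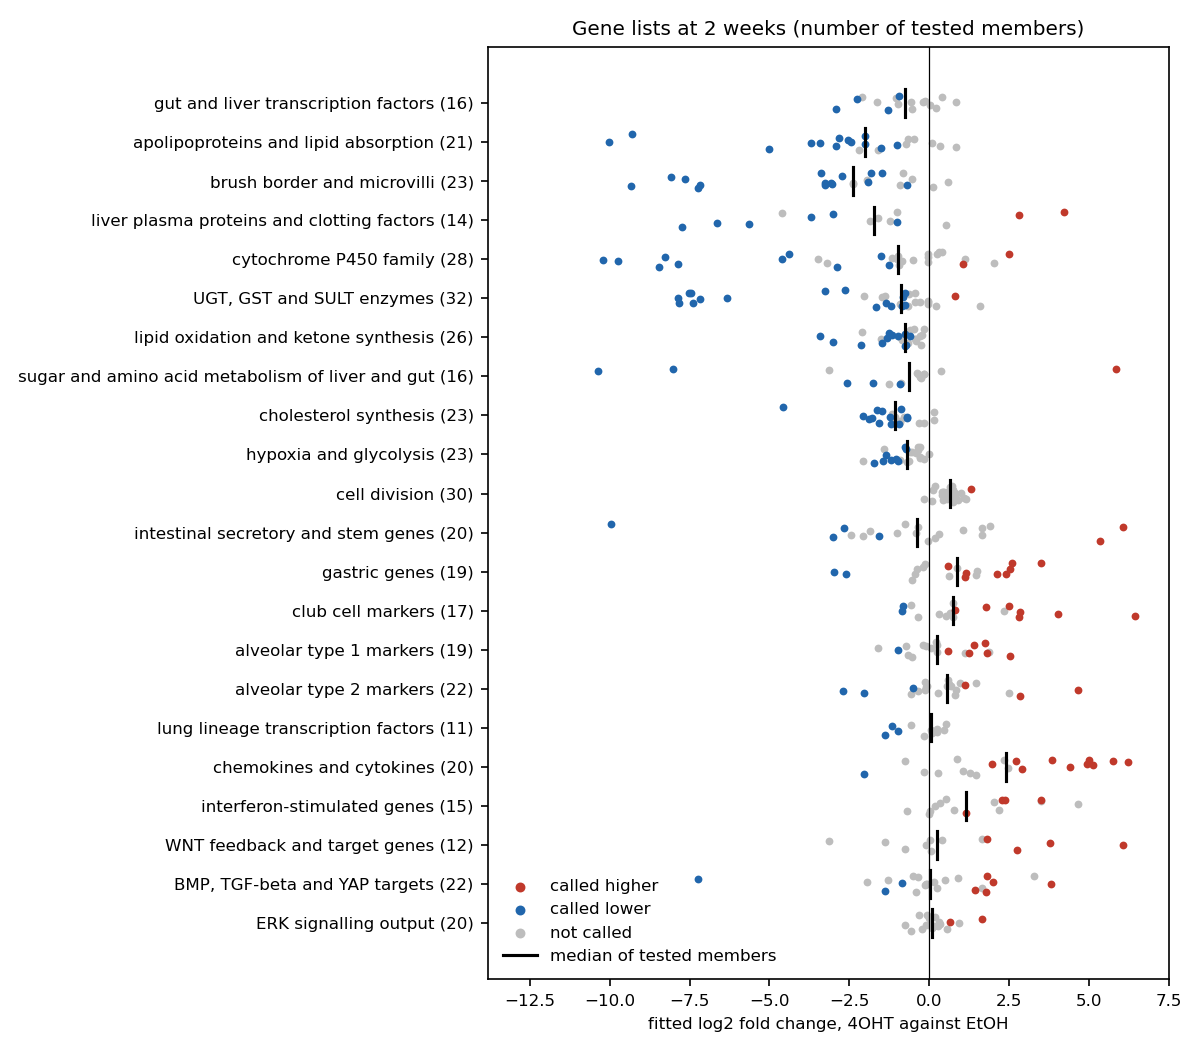
Fitted log2 fold change (4OHT against EtOH, horizontal axis) of every tested member of the gene lists, with the number of tested members in brackets and a bar at the median. The brush border median lies at -2.38 and the chemokine and cytokine median at 2.40, while the ERK signalling output median lies at 0.10.

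Detoxifying enzymes make lipophilic compounds soluble for excretion. Of 28 tested cytochrome P450 genes, 10 (35.7%) were lower and 2 (7.14%) higher, beside 5.78% lower and 4.03% higher of all tested genes (median log2 fold change -0.99). Of 32 tested glucuronosyltransferase, glutathione transferase and sulphotransferase genes, 16 were lower and 1 higher (median -0.89). Cyp4f14, a fatty acid hydroxylase, was at 7.78 and 3.05 CPM with EtOH and without a count with 4OHT, at least 51.4-fold lower. Ugt2b36 had 1 count with 4OHT against 2.90 and 7.46 CPM with EtOH, a pooled ratio of 276 (95% interval 49.1 to 10942). Cyp2f2, a P450 of airway club cells, went the other way, at 6.26 and 7.64 CPM with EtOH and 38.6 and 39.7 CPM with 4OHT (log2 fold change 2.50 ± 0.18). Among the P450 calls, 7 and 6 remained without 4OHT replicate 1 and replicate 2, and among those of the second list 5 and 6.

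Of 233 tested solute carriers, 22 (9.44%) were lower and 11 (4.72%) higher, beside 5.78% and 4.03% of all tested genes, and their median log2 fold change was -0.10. Of these 33 calls, 12 and 11 remained without 4OHT replicate 1 and replicate 2. Slc7a9, the light chain of the cystine transporter, was at 6.26 and 9.52 CPM with EtOH and had no count with 4OHT, at least 74.8-fold lower. The zinc transporter Slc39a5 stood at 3.66 and 12.8 CPM with EtOH and 0 and 0.0375 CPM with 4OHT, a pooled ratio of 430.2 (95% interval 76.8 to 17035). Of 32 tested ABC transporters, 7 were lower and none higher. They included the drug efflux pumps Abcg2, at 7.98 and 36.5 CPM with EtOH and 1.48 and 1.80 CPM with 4OHT (log2 fold change -3.76 ± 0.75, and -2.28 without EtOH replicate 2), and Abcb1a, at 63.5 and 117 CPM with EtOH and 16.2 and 21.7 CPM with 4OHT (log2 fold change -2.25 ± 0.33). Without 4OHT replicate 1, 0 of the ABC transporter calls remained, and 2 without 4OHT replicate 2.

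Fatty acid oxidation and ketone synthesis had 12 of 26 tested members lower and 0 higher (median -0.76), with summed levels of 2578 and 2751 CPM with EtOH and 1728 and 1682 CPM with 4OHT. The peroxisomal oxidase Acox2 stood at 60.1 and 84.1 CPM with EtOH and 12 and 20.7 CPM with 4OHT (log2 fold change -2.14 ± 0.31), and Ehhadh, the peroxisomal bifunctional enzyme, at 14.1 and 14.2 CPM with EtOH and 5.22 and 6.11 CPM with 4OHT (log2 fold change -1.32 ± 0.21). Acsl1, which activates long-chain fatty acids, stood at 116 and 127 CPM with EtOH and 49.4 and 38.5 CPM with 4OHT (log2 fold change -1.46 ± 0.17). The medium-chain acyl-CoA synthetase gene Acsm1 was low in all libraries, at 1.91 and 1.12 CPM with EtOH and 0.131 and 0.150 CPM with 4OHT. Of the 12 calls, 2 and 3 remained without 4OHT replicate 1 and replicate 2.

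Of 16 tested genes of sugar and amino acid metabolism, 5 were lower and 1 higher. Otc, an enzyme of the urea cycle, was at 5.41 and 6.65 CPM with EtOH and had no count with 4OHT, at least 57.1-fold lower. Pklr, the liver pyruvate kinase, had 1 count with 4OHT against 5.11 and 6.42 CPM with EtOH, a pooled ratio of 324 (95% interval 57.7 to 12829.7), with 22% of its exon bases opposite another gene. Fbp2, a fructose bisphosphatase, stood at 122 and 144 CPM with EtOH and 21.9 and 23.2 CPM with 4OHT (log2 fold change -2.56 ± 0.15). Cth, which makes cysteine from cystathionine, stood at 19 and 18.5 CPM with EtOH and 6.17 and 4.80 CPM with 4OHT (log2 fold change -1.77 ± 0.21). The exception was the urea cycle gene Ass1, nearly absent with EtOH, at 0.0330 and 0 CPM with EtOH and 0.821 and 1.87 CPM with 4OHT. Of the 6 calls, 5 and 3 remained without 4OHT replicate 1 and replicate 2.

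Genes of cholesterol synthesis and its sterol-controlled partners fell in 13 of 23 tested members, with none called higher and a median log2 fold change of -1.08. The list summed to 6619 and 6337 CPM with EtOH and 3669 and 2379 CPM with 4OHT, and 4OHT replicate 2 was the lower one. Lss, which forms lanosterol, stood at 409 and 335 CPM with EtOH and 132 and 67.6 CPM with 4OHT (log2 fold change -1.90 ± 0.33). Insig1, the sterol sensor that restrains the pathway, stood at 369 and 500.4 CPM with EtOH and 132 and 72.4 CPM with 4OHT (log2 fold change -2.09 ± 0.32). Stard4, a sterol carrier, stood at 576 and 461 CPM with EtOH and 184 and 114 CPM with 4OHT (log2 fold change -1.80 ± 0.26). Mvd was called at adjusted p = 0.0460, while Sqle (adjusted p = 0.0506) and Cyp51 (adjusted p = 0.0896) did not pass. Of the 13 calls, 11 remained without 4OHT replicate 1 and 4 without 4OHT replicate 2.

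Genes of glycolysis and the response to low oxygen fell in 8 of 23 tested members, with none called higher (median -0.68). Ndrg1, a stress-response gene induced by low oxygen, stood at 2943 and 3921 CPM with EtOH and 846 and 1234 CPM with 4OHT (log2 fold change -1.72 ± 0.24). Egln3, an oxygen-sensing prolyl hydroxylase, stood at 599 and 686 CPM with EtOH and 186 and 317 CPM with 4OHT (log2 fold change -1.35 ± 0.26), and Bnip3, a mitophagy receptor, at 777 and 750.2 CPM with EtOH and 286 and 379.8 CPM with 4OHT (log2 fold change -1.20 ± 0.17), with 22.3% of its exon bases opposite another gene. Of the enzymes, Pgk1 stood at 3072 and 2989 CPM with EtOH and 1487 and 1477 CPM with 4OHT (log2 fold change -1.03 ± 0.12), Pfkp at 412 and 382 CPM with EtOH and 125 and 166 CPM with 4OHT (log2 fold change -1.45 ± 0.17) and Gapdh at 11100.2 and 10753 CPM with EtOH and 6062 and 6973 CPM with 4OHT (log2 fold change -0.75 ± 0.14). Pkm did not pass the test (log2 fold change -0.16 ± 0.13, adjusted p = 0.435). Gapdh, Trf, which encodes the iron carrier transferrin, Ndrg1, Scd2, a fatty acid desaturase, and Pgk1 had the highest mean CPM of all called falls. Without 4OHT replicate 1, 2 of the 8 calls remained, and 4 without 4OHT replicate 2.

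**Figure D4:**
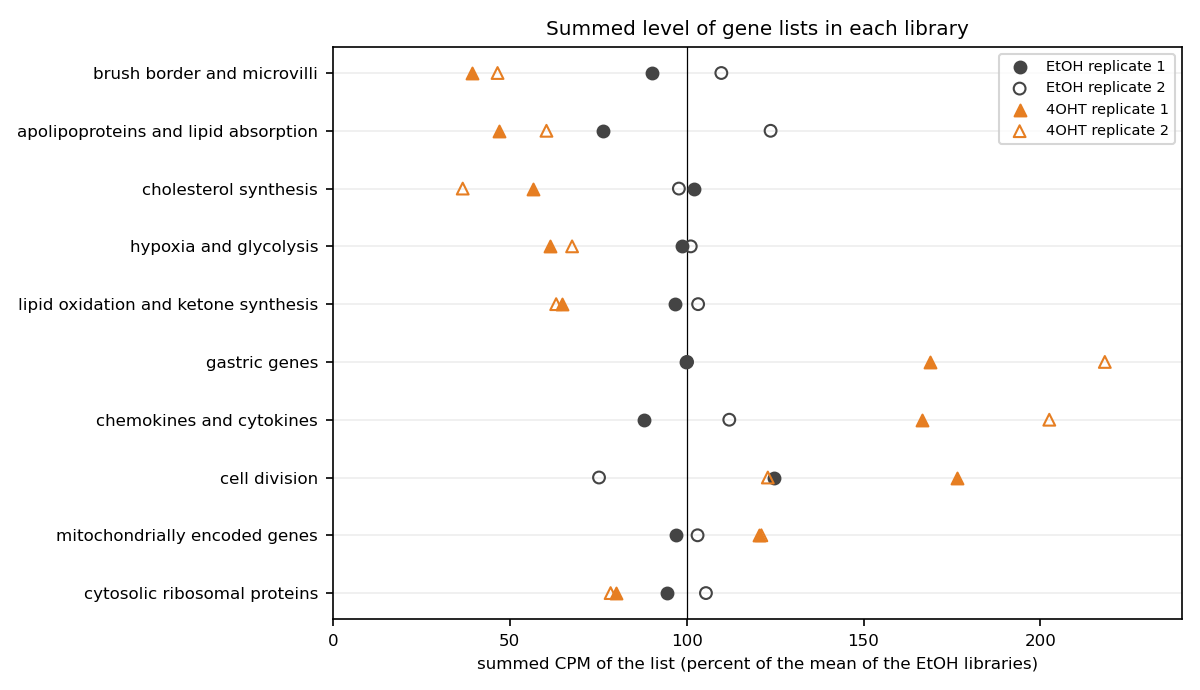
Summed CPM of 10 gene lists in each library, as a percent of the mean of the EtOH libraries (vertical line at 100). For the brush border list the EtOH libraries summed to 1984 and 2415 CPM and the 4OHT libraries to 865 and 1024 CPM, whereas for cell division the groups overlap, with 2366 and 1427 CPM against 3344 and 2332 CPM.

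The largest rises, among genes with at least 10 CPM in the 4OHT mean, included the retinol receptor gene Stra6, genes of the Mcpt and Ctla2 families, neutrophil chemokines and genes of the cytoskeleton and matrix. Stra6 stood at 0.791 and 0 CPM in the EtOH libraries and 76.0 and 21.5 CPM in the 4OHT libraries (log2 fold change 6.78 ± 1.07), with 4OHT replicate 1 the higher one. Its fitted value was 5.63 without 4OHT replicate 1 (adjusted p = 0.0573) and 13.34 without EtOH replicate 1, where no EtOH count is left and the value depends on the prior count. Ctla2a, a cysteine protease inhibitor, stood at 0.462 and 0.449 CPM with EtOH and 24.4 and 43.5 CPM with 4OHT (log2 fold change 6.20 ± 0.41). Mcpt8, of the mast cell protease family, stood at 0.198 and 0.135 CPM with EtOH and 7.06 and 16.3 CPM with 4OHT (log2 fold change 6.07 ± 0.61). Reads of Mcpt and Ctla2 genes can be split between near-identical copies. Arap3, a regulator of small GTPases, stood at 0.0989 and 0.314 CPM with EtOH and 6.73 and 14.5 CPM with 4OHT (log2 fold change 5.73 ± 0.66). Fxyd5, a subunit of the sodium pump, Nes, the intermediate filament nestin, Fscn1, the actin bundler fascin, and Col8a1, a collagen, were at most 0.584 CPM with EtOH and between 9.78 and 15.1 CPM with 4OHT, and their log2 fold changes lay between 4.76 (Col8a1) and 5.10 (Fxyd5). The sulphotransferase gene Chst2, the matrix gene Fbln2 and Mcpt1 rose by 4.68, 4.56 and 4.52 on the log2 scale, and the non-coding RNA Mir100hg by 4.22.

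Retinoid genes moved in both directions, with 3 of 14 tested members higher and 3 lower. Aldh1a3, which makes retinoic acid, stood at 4.95 and 4.94 CPM with EtOH and 63.9 and 111 CPM with 4OHT (log2 fold change 4.14 ± 0.31), and the retinol dehydrogenase gene Rdh10 at 49.7 and 38.3 CPM with EtOH and 93.1 and 82.5 CPM with 4OHT (log2 fold change 1.00 ± 0.17). With Stra6, these were the members called higher. Among those lower was Rbp2, as given with the lipid genes. Of the 6 calls, 3 and 4 remained without 4OHT replicate 1 and replicate 2.

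Chemokines and cytokines rose in 10 of 20 tested members and fell in 1, beside 4.03% of all genes called higher, and their median log2 fold change was 2.40. The chemokines that attract neutrophils through CXCR2 were low with EtOH and readily counted with 4OHT. Cxcl1 stood at 0.560 and 0.629 CPM with EtOH and 18.1 and 23.5 CPM with 4OHT (log2 fold change 5.12 ± 0.28), Cxcl3 at 0.956 and 0.808 CPM with EtOH and 27.6 and 29.3 CPM with 4OHT (log2 fold change 4.99 ± 0.22) and Cxcl5 at 0.330 and 0.180 CPM with EtOH and 8.34 and 8.13 CPM with 4OHT (log2 fold change 4.95 ± 0.38). Ppbp, of the same chemokine group, stood at 1.05 and 0.853 CPM with EtOH and 27.9 and 24.4 CPM with 4OHT (log2 fold change 4.76 ± 0.24). Cxcl2 had 1 count with EtOH and stood at 0.821 and 1.76 CPM with 4OHT, a pooled ratio of 4OHT to EtOH of 66.3 (95% interval 11.5 to 2654). The interleukin gene Il1a, at 0 and 0.0449 CPM with EtOH and 1.67 and 1.87 CPM with 4OHT, had a pooled ratio of 93.0 (95% interval 16.3 to 3708), with 11.2% of its exon bases opposite another gene. The member called lower was the alarmin gene Il33, at 32.1 and 82.3 CPM with EtOH and 12.5 and 15.3 CPM with 4OHT (log2 fold change -2.03 ± 0.45, and -1.20 without EtOH replicate 2). Of the 11 calls, 8 and 7 remained without 4OHT replicate 1 and replicate 2.

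Interferon-stimulated genes were called higher in 4 of 15 tested members and lower in none. Gbp2, a guanylate-binding protein, stood at 0.824 and 0.539 CPM with EtOH and 6.76 and 8.92 CPM with 4OHT (log2 fold change 3.5 ± 0.36), and Mx1, an antiviral GTPase, at 6.13 and 5.88 CPM with EtOH and 21.6 and 37.1 CPM with 4OHT (log2 fold change 2.29 ± 0.30). Gbp3 and Ddx58, the RNA sensor RIG-I, rose by 2.37 and 1.17. Another 10 of the 25 listed members were too low to be tested. In antigen presentation, 1 of 3 tested genes of the class II list rose, Cd74, the invariant chain, at 0.0989 and 0.225 CPM with EtOH and 3.25 and 4.80 CPM with 4OHT (log2 fold change 4.66 ± 0.52), and 1 of 7 of the class I list, H2-D1, which may share reads with its close relatives, at 211 and 219.8 CPM with EtOH and 307 and 341 CPM with 4OHT (log2 fold change 0.59 ± 0.12, adjusted p = 0.0403). The Cd74 call remained in all 4 fits without 1 library, and the H2-D1 call in 0 of them. Of the 4 interferon calls, 2 remained when either 4OHT library was left out. None of the 6 tested markers of fibroblasts, endothelium and immune cells was called higher, and Csf1r and Pecam1, a macrophage and an endothelial marker, were called lower. Csf1r stood at 13.2 and 38.1 CPM with EtOH and 3.45 and 5.14 CPM with 4OHT and Pecam1 at 5.93 and 5.03 CPM with EtOH and 2.04 and 2.21 CPM with 4OHT; without a 4OHT library neither was called, and over all fits without 1 library Pecam1 lay between -1.48 and -1.26 and Csf1r between -3.17 and -1.62, its smallest change without EtOH replicate 2. The part of other cell types in these results was not tested.

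Gastric genes rose in 8 of 19 tested members and fell in 2 (median 0.87, and 0.50 to 1.07 with 1 library left out), which is 42.1% and 10.5% against 4.03% and 5.78% of all tested genes. Their summed level was 1169 and 1172 CPM with EtOH and 1974 and 2554 CPM with 4OHT. Aqp5, at a mean of 574 CPM with EtOH and 869 CPM with 4OHT, was among the rises. It is also in the alveolar type 1 list, as is Cldn18, and Muc1 is also in the type 2 list. The gastric and alveolar counts are therefore not independent. Muc5ac, the gel-forming mucin of surface foveolar cells and airway goblet cells, stood at 4.45 and 4.99 CPM with EtOH and 17.6 and 38.9 CPM with 4OHT (log2 fold change 2.58 ± 0.41). Cldn18, a claudin with a gastric and a lung isoform that gene-level counts do not separate, stood at 6.40 and 2.74 CPM with EtOH and 27.7 and 25.3 CPM with 4OHT (log2 fold change 2.52 ± 0.40). Capn9, a calpain of gastric epithelium, stood at 0.297 and 0.180 CPM with EtOH and 2.53 and 3.04 CPM with 4OHT (log2 fold change 3.49 ± 0.43), and the mucin gene Muc1 at 76.4 and 69.9 CPM with EtOH and 183 and 135 CPM with 4OHT (log2 fold change 1.12 ± 0.18). Those that fell were Pgc, encoding a pepsinogen, at 7.81 and 7.77 CPM with EtOH and 1.25 and 1.31 CPM with 4OHT (log2 fold change -2.60 ± 0.27), and Tff3, a trefoil factor of goblet cells, at 2.54 and 3.77 CPM with EtOH and 0.492 and 0.300 CPM with 4OHT (log2 fold change -2.96 ± 0.45). Ctse, encoding cathepsin E, did not pass the test at 112 and 154 CPM with EtOH and 175 and 312 CPM with 4OHT (adjusted p = 0.131). Of the 10 calls, 5 and 3 remained without 4OHT replicate 1 and replicate 2.

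Genes of the intestinal secretory and stem list gave 2 rises and 4 falls in 20 tested members. Lgals4, an apical lectin of enterocytes, stood at 669.7 and 673 CPM in the EtOH libraries and 114 and 50.9 CPM in the 4OHT libraries (log2 fold change -3.02 ± 0.38). Its relative Lgals2 was at 2.77 and 6.42 CPM with EtOH and had no count with 4OHT, at least 43.6-fold lower. Cdh17, the liver-intestine cadherin, stood at 59.3 and 33.2 CPM with EtOH and 7.52 and 7.05 CPM with 4OHT (log2 fold change -2.67 ± 0.31), and Krt20, an enterocyte keratin, at 276 and 313 CPM with EtOH and 73.0 and 126 CPM with 4OHT (log2 fold change -1.57 ± 0.27). The members called higher were Spdef, a transcription factor of secretory cells, at 0.0659 and 0 CPM with EtOH and 1.71 and 1.72 CPM with 4OHT, a pooled ratio of 4OHT to EtOH of 45.1 (95% interval 12.2 to 378), and Lgr5, an R-spondin receptor, at 0 and 0.0449 CPM with EtOH and 2.59 and 0.562 CPM with 4OHT, a pooled ratio of 86.5 (95% interval 15.2 to 3453). Of the 6 calls, 4 and 5 remained without 4OHT replicate 1 and replicate 2.

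Among lung markers, 7 of 17 tested club cell genes rose and 2 fell, with a median log2 fold change of 0.75, beside 4.03% higher and 5.78% lower of all tested genes. Scgb1a1, the secretoglobin that defines club cells, stood at 39.9 and 25.2 CPM with EtOH and 102 and 121 CPM with 4OHT (log2 fold change 1.77 ± 0.25). Gabrp, a GABA receptor subunit of secretory epithelium, stood at 1.55 and 3.86 CPM with EtOH and 41.1 and 45.3 CPM with 4OHT (log2 fold change 4.02 ± 0.42), and Bpifa1, an airway secretory protein, at 0.0330 and 0.0449 CPM with EtOH and 2.53 and 4.95 CPM with 4OHT. The members called lower were the retinal dehydrogenase gene Aldh1a1 and the glutathione transferase gene Gsta3, at -0.84 and -0.82 on the log2 scale. Of the alveolar type 1 list, 6 of 19 rose and 1 fell, with a median of 0.24 (0.06 to 0.33 with 1 library left out). Krt7 was the most abundant of its named rises, at 925 and 823 CPM with EtOH and 2401 and 2268 CPM with 4OHT (log2 fold change 1.42 ± 0.13), and Rtkn2, Col4a3 and the water channel gene Aqp5 rose by 1.74, 1.80 and 0.60. The member called lower was Timp3, a metalloproteinase inhibitor, at -0.97, and Ager, the receptor that marks type 1 cells, gave log2 fold change -0.11 ± 0.12 (adjusted p = 0.579). The alveolar type 2 list had 3 of 22 tested members higher and 3 lower. Its surfactant genes did not pass the test: Sftpb gave log2 fold change -0.08 ± 0.25, and Sftpc, at 524 and 181 CPM with EtOH and 904 and 363 CPM with 4OHT, varied widely within each group (adjusted p = 0.397). S100g, a calcium-binding protein, stood at 72.7 and 136 CPM with EtOH and 16.8 and 15.6 CPM with 4OHT (log2 fold change -2.68 ± 0.31). Of the calls, 5 and 5 of 9 in the club cell list, 1 and 1 of 7 in the type 1 list and 2 and 3 of 6 in the type 2 list remained without 4OHT replicate 1 and replicate 2.

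Transcription factors of gut and liver fell in 4 of 16 tested members, with none called higher. Nr1i2, the xenobiotic receptor PXR, stood at 20.3 and 28.5 CPM with EtOH and 2.72 and 3.67 CPM with 4OHT (log2 fold change -2.93 ± 0.28), and Nr5a2, a receptor of liver, pancreas and gut crypts, at 2.84 and 1.57 CPM with EtOH and 0.427 and 0.487 CPM with 4OHT (log2 fold change -2.27 ± 0.46). Foxa3 stood at 13.4 and 17.3 CPM with EtOH and 5.94 and 6.71 CPM with 4OHT (log2 fold change -1.27 ± 0.23) and Pparg, a lipid-sensing receptor, at 190.1 and 187 CPM with EtOH and 87.7 and 109 CPM with 4OHT (log2 fold change -0.94 ± 0.15). Of 11 tested lung lineage factors, 3 fell: Id2, at 271 and 402 CPM with EtOH and 105 and 154 CPM with 4OHT (log2 fold change -1.38 ± 0.26), Klf5, at 162 and 205 CPM with EtOH and 75.0 and 89.6 CPM with 4OHT (log2 fold change -1.16 ± 0.17), and Elf3, at 222 and 260.0 CPM with EtOH and 111 and 135 CPM with 4OHT (log2 fold change -0.97 ± 0.16). Klf5 and Elf3 are also factors of gut epithelium. Nkx2-1 gave a log2 fold change of 0.06 ± 0.20 (adjusted p = 0.858), and its 4OHT libraries lay within the range of its EtOH libraries. Without 4OHT replicate 1 and replicate 2, 1 and 2 of the gut and liver factor calls and 0 and 2 of the lung factor calls remained.

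The transcriptional output of the MAP kinase ERK had 2 of 20 members (10.0%) called higher and none lower, beside 4.03% and 5.78% of all tested genes, with a median log2 fold change of 0.10 (-0.09 to 0.34 with 1 library left out). These were Etv4, an ETS factor, at 53.6 and 47.6 CPM with EtOH and 82.4 and 78.0 CPM with 4OHT (log2 fold change 0.66 ± 0.13), and Fosl1, an AP-1 subunit, at 6.20 and 8.80 CPM with EtOH and 16.0 and 31 CPM with 4OHT (log2 fold change 1.65 ± 0.37, and 1.10 without 4OHT replicate 2), with 57.2% of its exon bases opposite another gene. The ERK phosphatase gene Dusp6, at 234 and 378 CPM with EtOH and 196 and 293 CPM with 4OHT, did not pass the test (adjusted p = 0.498), nor did Ccnd1 (cyclin D1), at 344 and 214 CPM with EtOH and 565 and 503 CPM with 4OHT (adjusted p = 0.0658). WNT genes gave 4 rises and no fall in 12 tested members, and 8 were not called. The median log2 fold change of the WNT list was 0.23, and -0.11 to 0.61 with 1 library left out. Wnt7b, a lung epithelial ligand, stood at 21.8 and 22.6 CPM with EtOH and 148 and 149.9 CPM with 4OHT (log2 fold change 2.75 ± 0.13), Tcf7, a nuclear mediator of the pathway, at 1.52 and 1.48 CPM with EtOH and 6.73 and 3.79 CPM with 4OHT (log2 fold change 1.81 ± 0.38), and Lgr5, given above, was higher in 4OHT replicate 1 than in replicate 2. Of the 2 ERK calls, 1 and 0, and of the 4 WNT calls, 1 and 2, remained without 4OHT replicate 1 and replicate 2.

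Among 22 tested genes of the BMP, TGF-β and YAP pathways, 5 rose and 3 fell. Nog, which encodes the secreted BMP antagonist noggin, stood at 2.51 and 4.18 CPM with EtOH and 0.0328 and 0 CPM with 4OHT, a pooled ratio of EtOH to 4OHT of 184 (95% interval 32.5 to 7294). The YAP targets Ankrd1 and Ccn2 rose, Ankrd1 standing at 1.05 and 2.52 CPM with EtOH and 20.4 and 28.9 CPM with 4OHT (log2 fold change 3.81 ± 0.44) and Ccn2 at 46.1 and 39.8 CPM with EtOH and 148 and 156 CPM with 4OHT (log2 fold change 1.82 ± 0.14, with 23.2% of exon bases opposite another gene). The ligand genes Tgfb1 and Tgfb2 rose by 1.77 and 1.99. Of the 8 calls, 5 and 4 remained without 4OHT replicate 1 and replicate 2.

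Basement membrane genes gave 3 rises and 3 falls in 17 tested members. Lama3, a laminin chain, stood at 19.5 and 25.5 CPM with EtOH and 82.4 and 173 CPM with 4OHT (log2 fold change 2.50 ± 0.37). Fras1 and Frem2, partners in an extracellular complex, both fell, Fras1 to 8.40 and 9.22 CPM from 40.7 and 66.5 CPM (log2 fold change -2.60 ± 0.27) and Frem2 to 11.8 and 14.5 CPM from 28.9 and 42.0 CPM (log2 fold change -1.43 ± 0.24). Of 11 tested genes of the mesenchymal transition, 2 rose: Hmga2, a chromatin protein of fetal and tumour tissue, at 14.3 and 11.8 CPM with EtOH and 51.1 and 75.2 CPM with 4OHT (log2 fold change 2.27 ± 0.24), and the gelatinase gene Mmp9, at 0 and 0.225 CPM with EtOH and 2.10 and 4.24 CPM with 4OHT. The epithelial cadherin gene Cdh1 did not pass the test, at 621 and 591 CPM with EtOH and 542 and 631 CPM with 4OHT (log2 fold change -0.05 ± 0.13). Without 4OHT replicate 1 and replicate 2, 2 and 2 of the 6 basement membrane calls and 1 and 1 of the 2 mesenchymal calls remained.

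Cell division genes had 1 of 30 tested members called higher and none lower, with a median log2 fold change of 0.65 (0.28 to 1.10 with 1 library left out). The member called was Cdc6, a replication licensing factor, at 16.0 and 11.2 CPM with EtOH and 39.6 and 27.9 CPM with 4OHT (log2 fold change 1.31 ± 0.26). Top2a, the topoisomerase of mitosis, at 173 and 91.8 CPM with EtOH and 285 and 209 CPM with 4OHT, did not pass the test (adjusted p = 0.138), and EtOH replicate 1 had the higher EtOH level. Leaving out EtOH replicate 1 left 25 of the 30 genes called, and leaving out either 4OHT library left none of the calls. Among 20 tested CDK inhibitors and p53 targets, 4 fell and 1 rose, beside 5.78% lower and 4.03% higher of all tested genes. Cdkn1c, which encodes the CDK inhibitor p57, stood at 431 and 605 CPM with EtOH and 136 and 93.4 CPM with 4OHT (log2 fold change -2.18 ± 0.25), with 30.7% of its exon bases opposite another gene. Pmaip1, a BH3-only protein, fell by 2.01 on the log2 scale, Gdf15, a stress cytokine, by 2.47 and Trp53inp1 by 0.72. Cdkn1a (p21) did not pass the test at 361 and 529 CPM with EtOH and 69.6 and 175 CPM with 4OHT (adjusted p = 0.0582). Trp53 itself rose, at 63.6 and 67.8 CPM with EtOH and 106 and 101 CPM with 4OHT (log2 fold change 0.66 ± 0.12); the organoids carry p53frt alleles, and the counts do not tell recombined from intact transcripts. Of the 5 calls, 1 and 3 remained without 4OHT replicate 1 and replicate 2.

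Among keratins, 5 of 19 tested members rose and 2 fell. Krt6a, a keratin of stressed and squamous epithelium with a near-identical copy, stood at 7.29 and 10.9 CPM with EtOH and 43.8 and 70.2 CPM with 4OHT (log2 fold change 2.66 ± 0.31). Clu, encoding the secreted chaperone clusterin, was the most abundant gene called higher, at 3189 and 3952 CPM in the EtOH libraries and 9921 and 12289.9 CPM in the 4OHT libraries (log2 fold change 1.64 ± 0.18), and Krt7, Mal, a protein of apical membrane traffic, mt-Nd4 and Aqp5 followed it. Of 80 tested genes of ribosomal proteins and their close relatives, matched by symbol, 2 were called lower, Rpl3 and Rpl22l1, and none higher. Their median log2 fold change was -0.34, and in 75 (93.8%) both 4OHT libraries were below both EtOH libraries, beside 30.3% of all tested genes. Neither call remained when either 4OHT library was left out, and 14 were called without EtOH replicate 1. Of 13 mitochondrially encoded genes, mt-Nd4 was called higher, at 609 and 629 CPM with EtOH and 929 and 885 CPM with 4OHT (log2 fold change 0.55 ± 0.12), and the list's median was 0.46; mt-Nd4 was called in 0 of the 4 fits that left out a library (adjusted p from 0.0756 to 0.239).

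The same deletion was sampled in a separate set of 8 libraries of 3154 organoids, given EtOH or 4OHT, and vehicle or 3 nM of the inhibitor MRTX1133. Their labelled time is 48 hours, and the labels do not separate the time of 4OHT from that of the inhibitor. The interval between 4OHT and RNA collection is therefore not known for this set. In vehicle, 31% of 15458 tested genes were called (15.3% higher, 15.7% lower), and with MRTX1133 27.7% (13.2% higher, 14.5% lower); those libraries shared 1 fit of 8, while the 2-week fit has 4. Over 13846 genes tested in both tables, 1295 were called at 2 weeks. Of these, 947 (73.1%) were also called at 48 hours in vehicle, which is 21.4% of the genes called there, and 934 had the same direction. With MRTX1133, 889 (68.6% and 22.4%) were called in both, 876 in the same direction. Across the 13846 genes, which are not independent replicates, the correlation of the log2 fold changes was 0.723 in vehicle. Genes called lower at 2 weeks had a median of -1.28 at 2 weeks and -1.10 in the 48-hour vehicle contrast, and genes called higher 1.75 and 1.5. The tables differ in the labelled time and in gene annotation, and any difference in culture or library preparation cannot be told apart from these, so differences between the experiments were not tested.

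**Figure D5:**
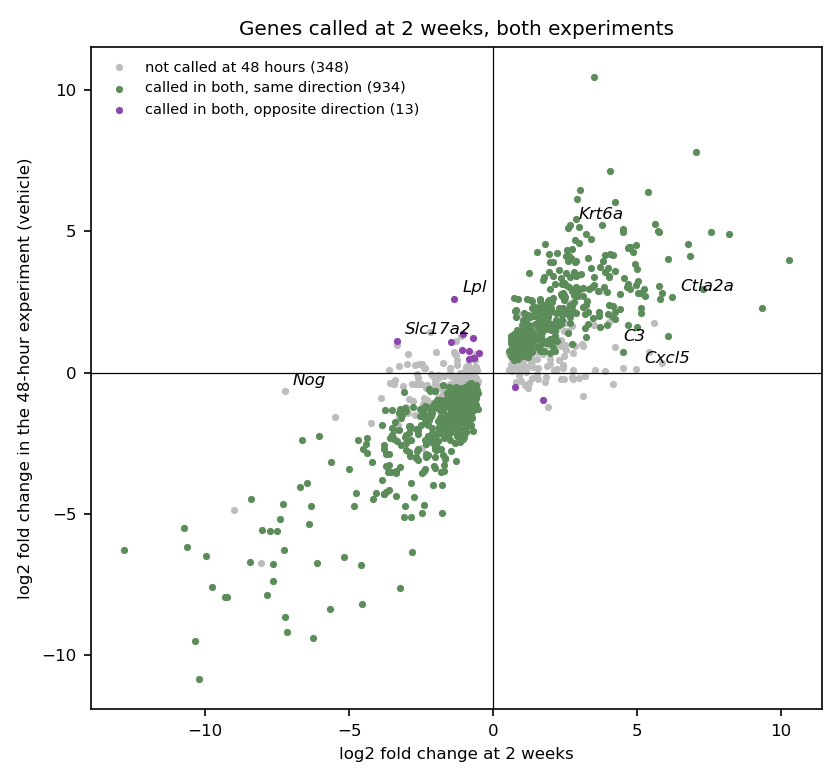
Log2 fold change at 2 weeks (horizontal axis) against that in the 48-hour vehicle experiment (vertical axis) for the genes called at 2 weeks and tested in both. Of the 947 genes called in both, 934 lie in the quadrants of equal sign and 13 in those of opposite sign.

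Several of the genes described had values of unlike size in the 2 experiments. Cxcl5 rose by 4.95 at 2 weeks and had 0.12 in the 48-hour vehicle contrast, and C3 4.21 and 0.89. Among falls, Nog had -7.24 and -0.66, Fras1 -2.60 and -0.18, S100g -2.68 and -0.39, and Acsl1 -1.46 and -0.13. In the other direction, Capn9 had 3.49 at 2 weeks and 10.46 at 48 hours, Muc5ac 2.58 and 5.12, Krt6a 2.66 and 5.21, and Hp 2.82 and 4.68. Hnf4a itself had -2.61 and -2.18, and Cyp2c65, Muc13 and Anks4b, whose promoters are printed above, had -7.59, -7.93 and -6.76 at 48 hours.

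H1651, a human lung adenocarcinoma line with a lentiviral HNF4α construct, was given 1 µg/mL doxycycline for 7 days or none, and there 1.42% of 17351 tested genes were called (1.04% higher, 0.386% lower). HNF4A stood at 41.5 ± 7.89 CPM without and 95.6 ± 1.73 CPM with doxycycline (SD, n = 2). Mouse and human genes were paired by symbol, which gave 10547 genes tested in both. Of 1054 of these called in the 2-week deletion, 59 were called in H1651 (5.6% of the first and 37.8% of the second), 46 of them lower in the deletion and higher with doxycycline, 5 the reverse, 5 higher in both and 3 lower in both. Of those lower in the deletion and higher with doxycycline, the largest product of changes was found for Apoa4, Apoa1, Alpi, Pipox, a peroxisomal oxidase, Ppp1r14d, a phosphatase inhibitor, Rbp2, Xpnpep2, an aminopeptidase of apical membranes, and Cdhr2. The human APOA1 stood at 0.138 ± 0.0205 CPM without and 24.4 ± 4.18 CPM with doxycycline, and CDHR2 at 0.657 ± 0.120 CPM without and 12.4 ± 4.42 CPM with doxycycline. In the organoids Ppp1r14d stood at 19.4 and 17.7 CPM with EtOH and 1.12 and 0.937 CPM with 4OHT (log2 fold change -4.16 ± 0.24), Xpnpep2 at 15.9 and 16.3 CPM with EtOH and 1.51 and 1.46 CPM with 4OHT (log2 fold change -3.43 ± 0.23) and Pipox, with 2 counts in all with 4OHT, at 2.04 and 4.49 CPM with EtOH and 0.0328 and 0.0375 CPM with 4OHT.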

How the data were processed

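RNA was measured in 34 libraries, and 3 of the 7 deposited tables were used: the 4 libraries of the 2-week experiment, the 8 of the 48-hour 3154 experiment and the 4 of H1651 with doxycycline. Per the labels' protocols, poly(A) RNA was made into directional libraries read from both ends. Per the submitters' processing notes, cutadapt 3.5, STAR 2.7.6a and featureCounts 1.6.3 were used; the build and annotation of each table and the strand setting of the counting are not given in the sources used here. The authors deposited raw counts per gene, with no normalization, per the file headers. A different strand setting or annotation would change counts of overlapping genes; overlaps were taken from GENCODE M21 (GRCm38).

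Counts were fitted in R 4.3.3 with edgeR 4.0.16 (filterByExpr, TMM, quasi-likelihood F-test, Benjamini-Hochberg adjustment over all tested genes, called under 0.05). Groups came from the sample titles. With 2 libraries a group an exact permutation test cannot reach 0.05. The total count per library is given in the report, and intervals and floors cover counting error only: a group without counts was set to a floor of 3 counts per library, and 95% intervals of pooled ratios are exact. Between replicates the chi-square per degree of freedom was 45.2 with EtOH and 33.4 with 4OHT, so no library was a copy of another. On simulated counts with 200 genes changed 3-fold, tested for the 2-week comparison over 14466 genes, 196 were recovered and 4 other genes were called.

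Named genes are Hnf4a, Nkx2-1, the 15 largest rises and falls with at least 10 CPM, up to 5 called and 3 uncalled members of each list, the 5 most abundant called genes each way, and genes of opposite sign in another experiment; some genes these rules select are not reported here. Timp3, Ager, Aldh1a1 and Gsta3 were named after their values were seen, and kinases matched by the symbol pattern of the ribosomal list were then taken out of it. The genes and lists were chosen with earlier results of these data known. A planned test of 2-week against 48-hour effects was dropped because the tables use different gene annotations. Alternatives were other scalings, filters and tools (DESeq2 1.42.0), a replicate block and leaving out each library.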

Additional observations from a re-analysis of the deposited data

Results flagged for a closer look

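Of the 166 genes named here, which include some chosen for opposite signs, 11 had every 4OHT library on one side of the EtOH libraries at 2 weeks and on the other side in the 48-hour vehicle experiment. Over all 1295 genes called at 2 weeks and tested in both, 37 did, and 13 were called in both with opposite directions. The difference between the experiments was not tested, and labelled time, annotation and any difference in culture cannot be told apart. Fitted log2 fold changes at 2 weeks and at 48 hours were -3.35 and 1.13 for Slc17a2, a phosphate transporter family member, -1.45 and 1.08 for the reductase gene Akr1c14, and -1.37 and 2.62 for Lpl, lipoprotein lipase. They were -1.09 and 0.80 for Rassf2, -1.03 and 1.36 for the protease inhibitor gene A2ml1, -0.84 and 0.78 for Aldh1a1, -0.50 and 0.69 for Egfl6, and -0.11 and 1.22 for Ager. In the opposite sense they were 0.75 and -0.49 for Rnf130, 1.74 and -0.96 for Crxos, and 1.81 and -0.34 for Tcf7. All but Ager were called at 2 weeks, and all but Tcf7 at 48 hours. With 1 library left out in turn, Slc17a2 and Akr1c14 were called at 2 weeks in all 4 fits, Rnf130 in 1, and Egfl6 (adjusted p = 0.0497 from edgeR with all libraries) and Crxos (adjusted p = 0.0495) in 0. The level of Lpl differed between the experiments before any effect of 4OHT, with 71.0 and 103 CPM in the EtOH libraries at 2 weeks and 0.379 and 0.671 CPM in those at 48 hours.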

How the results depend on the processing

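Of 1421 genes called at 2 weeks, 1413 remained with RLE scaling, 1334 with upper-quartile scaling, 1405 without a filter and 1385 with DESeq2, which called 2336 (911 higher, 1425 lower). Upper-quartile scaling moved the median of all genes by about 0.1 and called 1490, 737 higher and 753 lower. Requiring 10 counts in every library called 1004, 385 higher. The replicate numbers share only a number (their differences correlated at 0.429 over 2 pairs); with a replicate block 4563 genes were called, 2135 higher and 2428 lower, all 1421 and 25 of the 30 cell division genes, against 1, among them, and 3048 in H1651. Leaving out 1 library gave from 395 to 2790 calls, 149 to 1197 higher and 213 to 1593 lower, and 291 (20.5%) were called in all 4 such fits. DESeq2 called 441 in H1651, against 247, and the 4 vehicle libraries alone 3154 at 48 hours, against 4795. The correlation with 48 hours was 0.675 over genes with 10 counts in every library and 0.659 to 0.716 with a library left out. The motif share of called falls was 2.05% for CAAAGTCCA and 10.1% for CAAAGNNCA. The largest chromosome median was 0.119, and 0.0993 to 0.155 with a library left out. Of 166 genes named, none of the 152 called reversed under any alternative run; 85 were called in all 4 leave-one-out fits. Uncalled genes that reversed were Cdh1 (0.046 with upper-quartile scaling, -0.161 to 0.055 with a library left out), Sftpb (0.018 and -0.357 to 0.21), Dusp6 (-0.644 to 0.063 with a library left out) and Nkx2-1 (-0.17 to 0.338). The alternatives of the dropped test of 2-week against 48-hour effects were not run. Precision is limited by 2 libraries a group, and by counting for genes near 3 counts.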

Other observations

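Median log2 fold changes of tested genes per chromosome ran from -0.09 (chromosome 12) to 0.12 (chromosome 13), so no chromosome as a whole stood far from the median of all genes, 0.02. The share of genes called ran from 8.15% on chromosome 2, which carries Hnf4a, to 12.5% on chromosome 15.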
